A study of Mus musculus with 4 samples.

Results

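The variable (V) gene segments of the immunoglobulin loci were examined in peripheral blood mononuclear cells of 4 mice. The members were all gene symbols of the count table that begin with Ighv, Igkv or Iglv followed by a digit, which gave 79 of 15093 genes: 32 heavy chain segments (Ighv), 44 kappa segments (Igkv) and 3 lambda segments (Iglv), in 27 families. All animals were female wild-type C57BL/6 mice aged 3.2 ± 0.3 months and all were anaesthetized with ketamine and xylazine. The left ear of the 2 treated mice (Maus3_2 and Maus6) was exposed for 10 min to non-thermal plasma (NTP), an ionized argon gas from a plasma jet, and the 2 untreated mice (Maus2_2 and Maus4_2) received anaesthesia alone. Blood was taken 120 min after irradiation in the treated mice, whereas the 120 min of the untreated mice ran from the start of anaesthesia. The 2 groups were thus timed from different starting points. Each mouse gave 1 single-cell library (10x Genomics 3′ chemistry). The comparison asks whether local NTP treatment left a trace in the transcripts of circulating cells. With 2 mice per group, no exact permutation test over mice can give a p below 0.3333.

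A B cell assembles its antigen receptor by joining 1 V segment to joining (and, in the heavy chain, diversity) segments, so that the V segment in its transcript marks the cell and its progeny. The heavy chain pairs with a light chain, which is drawn from the kappa locus in most mouse B cells and from the small lambda locus in the others. Plasmablasts, the dividing antibody-secreting descendants of B cells, carry much more immunoglobulin transcript than resting B cells. A 3′ library reads mostly the far end of a transcript, where the constant region lies, and the V segment lies near the 5′ end.

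In the mm10 genome with the GENCODE vM21 annotation, all 79 symbols were matched. The Ighv segments lie on chromosome 12 (locus span 113572927 to 116010093), the Igkv segments on chromosome 6 (67555497 to 70704177) and the Iglv segments on chromosome 16 (19085017 to 19260859). All but 1 are annotated as functional V genes, and the exception is the pseudogene Igkv2-107 with 6 UMIs (unique molecular identifiers, the counted transcripts). The members are a part of the annotated repertoire, with 182 Ighv and 160 Igkv entries in the annotation and all 3 Iglv entries among the members. Many have a close copy: 20 of the 32 Ighv members and 24 of the 44 Igkv members share 95% or more of their transcript bases with another annotated segment, so that their counts are uncertain where reads cannot be told apart.

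The last 120 bases of the V exon are shown for the 2 kappa segments with the most UMIs and their relative Igkv1-135, since their closeness bears on how far their counts can be separated. They lie at chr6:68121708-68121827 (Igkv1-117), chr6:68271148-68271267 (Igkv1-110) and chr6:67610389-67610508 (Igkv1-135), all on the plus strand. Capitals mark bases that differ from Igkv1-117 in an alignment of these stretches.
Igkv1-117: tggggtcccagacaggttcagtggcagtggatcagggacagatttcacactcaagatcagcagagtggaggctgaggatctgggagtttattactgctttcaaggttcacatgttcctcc
Igkv1-110: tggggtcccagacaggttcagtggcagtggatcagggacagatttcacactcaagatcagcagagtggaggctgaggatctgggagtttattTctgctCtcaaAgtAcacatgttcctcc
Igkv1-135: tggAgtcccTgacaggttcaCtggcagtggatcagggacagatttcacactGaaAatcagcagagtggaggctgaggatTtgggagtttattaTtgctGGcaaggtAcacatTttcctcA
Igkv1-117 and Igkv1-110 differed at 4 of these 120 bases and were 97.5% identical over the whole transcript model, and 83.9% and 83.8% of their 100-base windows occurred in no other annotated V segment. Igkv1-135 differed from Igkv1-117 at 12 of the 120 bases.

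The 3 lambda segments are shown because the clusters described further on differ in them. They lie on the minus strand at chr16:19085017-19085136 (Iglv1), chr16:19260401-19260520 (Iglv2) and chr16:19241207-19241326 (Iglv3), and capitals mark bases that did not match Iglv1 in an alignment.
Iglv1: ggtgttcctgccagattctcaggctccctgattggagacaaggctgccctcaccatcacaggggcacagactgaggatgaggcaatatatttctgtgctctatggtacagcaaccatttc
Iglv2: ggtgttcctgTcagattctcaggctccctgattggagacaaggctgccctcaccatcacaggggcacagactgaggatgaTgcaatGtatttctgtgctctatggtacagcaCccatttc
Iglv3: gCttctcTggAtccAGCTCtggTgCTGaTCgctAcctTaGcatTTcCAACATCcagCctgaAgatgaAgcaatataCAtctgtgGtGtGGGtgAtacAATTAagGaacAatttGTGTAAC
Iglv2 differed from Iglv1 at 4 bases, whereas Iglv3 did not match at 51 and shared 62.5% of the aligned transcript bases with Iglv1.

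The 3 heavy chain segments with the most UMIs lie on the minus strand at chr12:114788372-114788491 (Ighv1-26), chr12:114288152-114288271 (Ighv3-6) and chr12:114583569-114583688 (Ighv1-9). Capitals mark the codons for tyrosine, tyrosine and cysteine that close the framework before the antigen-contacting CDR3 loop.
Ighv1-26: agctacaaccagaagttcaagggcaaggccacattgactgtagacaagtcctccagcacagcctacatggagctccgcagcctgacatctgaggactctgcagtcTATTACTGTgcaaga
Ighv3-6: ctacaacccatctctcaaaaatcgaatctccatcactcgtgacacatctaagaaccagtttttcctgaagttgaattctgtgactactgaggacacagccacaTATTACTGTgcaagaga
Ighv1-9: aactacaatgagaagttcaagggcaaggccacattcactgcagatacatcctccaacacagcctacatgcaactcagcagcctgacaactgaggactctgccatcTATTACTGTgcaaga
The 2 members of the Ighv1 family were 84.0% identical to each other, and Ighv1-26 shared 62.5% of the aligned bases with Ighv3-6.

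The libraries held 993 to 1705 cells and 4653719 to 7093148 UMIs, with median depths of 3104.5 to 4480.5 UMIs per cell, and the untreated mouse Maus4_2 was the shallowest. The authors' annotation named 3130 B cells, 474 plasmablasts, 1517 CD4+ T cells, 600 CD8+ T cells and 73 NK cells. The B cells carried their markers (Cd79a in 98.9%, Ms4a1 in 75.2% of cells). In the cells annotated as plasmablasts the defining markers were little raised or not raised. Xbp1 was found in 7.6% of them against 6.9% of B cells, and Mzb1 in 41.8% against 42.5%. Sdc1 was found in 1.48% against 1.25% and Prdm1 in 1.48% against 0.99%, each in only 7 of these cells. The B cell gene Ms4a1 was found in 89.5% of them. The joining chain gene Jchain was listed at 0 in 3 libraries and had 2 UMIs in Maus2_2, neither of them in these cells. They are called annotated plasmablasts in what follows. In the cells annotated as NK cells, the T cell genes Cd3d and Trac were found in 98.6% and 91.8%. Of the NK markers, Klrd1 was found in 76.7% and Nkg7 in 97.3%, but Ncr1 and Klrb1c in 1.37% each. These cells are called annotated NK cells. Between libraries, 4 cell barcodes were shared, which concerned 8 cells and 3 V UMIs.

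V segments were found almost exclusively in the B lineage. Of 2739 V UMIs, 2735 fell in B cells or annotated plasmablasts and 4 in CD4+ T cells. A V UMI was present in 40.0% of B cells (exact 95% interval 38.3 to 41.8, median depth 3364 UMIs) and in 56.1% of annotated plasmablasts (51.5 to 60.6, median depth 3381.5). In CD4+ T cells, which do not rearrange these loci, the share was 0.264% (0.0719 to 0.674) at a median depth of 4429 UMIs. Over the segments listed, in CD8+ T cells it was 0 of 600, which allows up to 0.5%, and in annotated NK cells 0 of 73, which allows up to 4.11%. These intervals cover counting error only.

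The V transcripts were thinly sampled even in the B lineage. They stood at 197.6 CPM (the usual scaling of counts to a common library total) in B cells and at 311.8 in annotated plasmablasts. Kappa segments gave 1974 UMIs (72.2%), heavy chain segments 510 (18.6%) and lambda segments 251 (9.18%). For every 100 UMIs of heavy chain constant genes there were 1.30 Ighv UMIs in B cells, and for every 100 UMIs of light chain constant genes there were 1.69 light chain V UMIs. A segment was read once in 75.8% of the 1944 cases in which a cell held it.

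Usage was concentrated on a few kappa segments. Igkv1-117 had 372 UMIs in 155 cells and Igkv1-110 had 298 in 157 cells, together 24.5% of all V UMIs of the B lineage. The first 10 segments held 53.9% and the first 20 held 70.1%, whereas the median segment had 17 UMIs and the rarest had 3. The next in order were Iglv3 with 153 UMIs, Igkv2-109 with 145, Igkv17-127 with 96, Iglv1 with 88, Igkv12-44 with 87, Igkv1-135 with 81, Igkv6-20 with 77 and Igkv12-46 with 76. Heavy chain usage was flatter: Ighv1-26 led with 40 UMIs, followed by Ighv3-6 with 38, Ighv1-9 with 33, Ighv9-3 with 32, Ighv8-8 with 30, Ighv1-82 with 29, Ighv5-17 with 25, Ighv5-4 with 22, Ighv2-2 with 20 and Ighv1-15 with 18. By family, the 5 Igkv1 segments held 39.4% of the kappa UMIs and the 18 Ighv1 segments 51.0% of the heavy chain UMIs.

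The leading segments were the same in most mice. Igkv1-117 in B cells and annotated plasmablasts had 92 UMIs in Maus3_2 and 122 in Maus6 (treated), then 85 for Maus2_2 and 73 for Maus4_2 (untreated). Igkv1-110 had 112 and 78 UMIs against 40 and 68 in the same order. Igkv1-117 therefore ranked first in 3 mice, and Igkv1-110 in Maus3_2. In Maus2_2 Igkv1-117 made up 25.4% of the V UMIs of B cells, against 10.6%, 13.1% and 12.9% in Maus3_2, Maus6 and Maus4_2. A single B cell of Maus2_2 held 23 of the 70 UMIs behind that share, the highest count of 1 segment in any cell, and the next highest count was 9. Iglv3 had 37, 70, 18 and 28 UMIs, and Igkv2-109 had 38, 52, 22 and 33, in the order Maus3_2, Maus6, Maus2_2 and Maus4_2. Across the 22 segments listed in every library, Spearman's rho of the UMIs of 2 mice lay between 0.524 (Maus3_2 with Maus2_2) and 0.903 (Maus3_2 with Maus4_2), as a description over segments that are not independent and differ in depth between libraries.

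**Figure D1:**
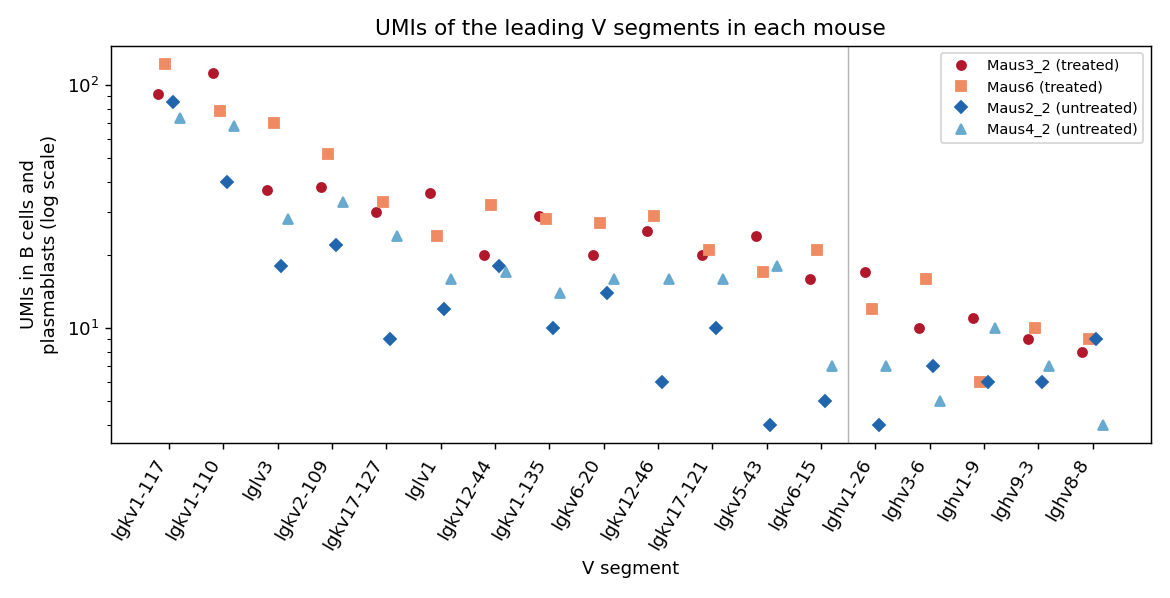
UMIs of the 13 V segments with the most UMIs and of the 5 leading heavy chain segments (right of the line) in B cells and annotated plasmablasts, on a log scale, with 1 point per mouse. Igkv1-117 and Igkv1-110 stand at 40 to 122 UMIs in all mice, and the heavy chain segments shown at 4 to 17.

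A feature of the deposited table limits what a missing segment means. Over 79 segments and 4 libraries, 115 combinations stood at 0, 199 had the segment in 3 or more cells, and 2 had it in 1 or 2 cells, both in Maus4_2. The treated libraries listed 58 (Maus3_2) and 61 (Maus6) segments above 0 and the untreated ones 30 (Maus2_2) and 52 (Maus4_2), and 22 segments (6 Ighv, 14 Igkv and 2 Iglv) were listed in all 4. Maus2_2 also had the fewest cells (993). A further 12 segments stood at 0 in Maus2_2 and were listed in the other 3 libraries. Over all genes, 5544 of 60372 combinations stood at 0 and 1390 had a gene in 1 or 2 cells. A 0 is therefore given here as listed at 0 and not as absence, and no fold is given for a segment or family that is itself listed at 0 in a mouse. Sums of families and loci count their segments listed at 0 as 0, so that their folds carry this limit. Totals over all segments are set beside totals over the 22 common segments. Among B cells, the common segments kept 66.6% (Maus3_2) and 67.9% (Maus6) of the V UMIs of treated mice. For untreated mice they kept 90.6% (Maus2_2) and 69.6% (Maus4_2). Restricting to these segments therefore lifts Maus2_2 relative to the other mice, and an overlap of groups over them carries this limit. What made the gap at 1 or 2 cells was not tested.

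**Figure D2:**
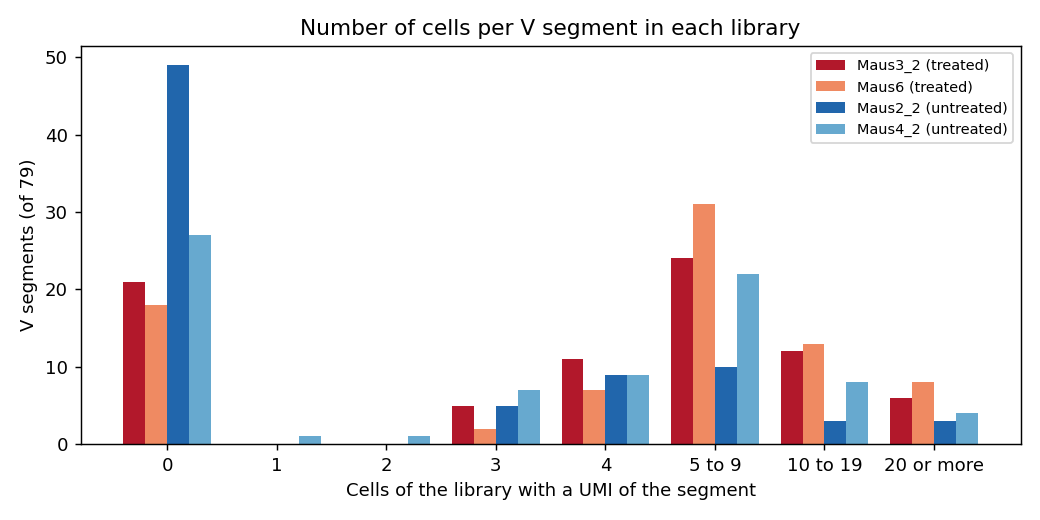
Number of V segments (of 79, vertical axis) by the number of cells of a library that hold a UMI of the segment (horizontal axis), with 1 bar per mouse. Between the bars at 0 and at 3 cells, 2 segments stand, both in Maus4_2, and the bar at 0 is highest in Maus2_2 with 49 segments.

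The treated and untreated mice were compared in B cells by the total of each locus. The CPM of Ighv (edgeR, scaled by TMM) were 37.9 and 52.7 for Maus3_2 and Maus6, and 21.5 and 36.0 for Maus2_2 and Maus4_2. Both treated mice lay above both untreated mice, with Maus3_2 and Maus4_2 close to each other. The log2 fold change was 0.63 ± 0.22 (SE), with an unadjusted p of 0.0121 and an adjusted p of 0.934 by edgeR's quasi-likelihood test with Benjamini-Hochberg adjustment over all features. It was 0.33 without Maus2_2, 0.38 without Maus6 and 1.06 without Maus4_2. Igkv was at 155 ± 29.8 in treated and 130 ± 34.3 in untreated mice (SD, n = 2 each), and Iglv at 17.4 ± 8.19 and 11.3 ± 5.65. Neither group of mice was separated for Igkv or Iglv, and the log2 fold changes were 0.24 ± 0.16 and 0.57 ± 0.36, with ranges of 0.01 to 0.54 and 0.00 to 1.22 when 1 mouse was left out. Over this fit, 34.9% of the 9891 features tested had treated and untreated mice that did not overlap, and 0% were called. With the 22 common segments alone, Ighv gave 16.2 and 16.0 CPM (plain counts) in treated mice against 14.4 and 13.3 in untreated ones, and none of the 3 loci had an unadjusted p under 0.05.

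**Figure D3:**
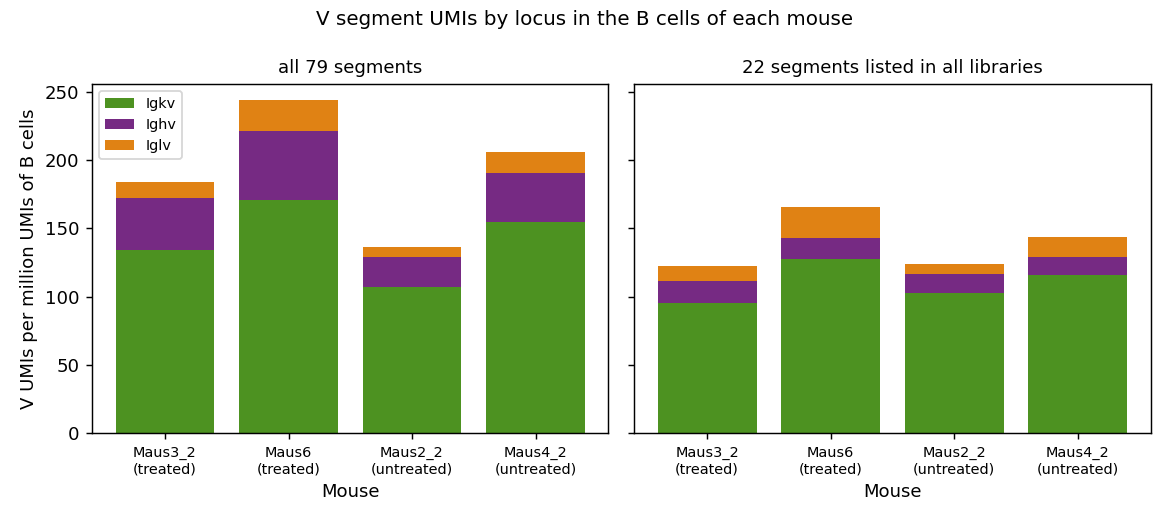
V UMIs in B cells in CPM (vertical axis), stacked by locus, for each mouse, over all 79 segments (left) and over the 22 segments listed in all libraries (right). The total runs from 136.6 in Maus2_2 to 243.9 in Maus6 over all segments and from 122.3 in Maus3_2 to 165.7 in Maus6 over the common ones.

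No single segment was called in either cell type. In B cells 15 of the 79 segments passed the filter on low counts (13 Igkv and 2 Iglv, no Ighv), of which 12 were higher and 3 lower in treated mice (Igkv3-4 and Igkv19-93, listed at 0 in 1 or both untreated mice, among the 12), and 0 passed an adjusted p of 0.05 in edgeR, in DESeq2 or in limma-voom. The median log2 fold change of these 15 was 0.24 against 0.00 over the 9903 genes tested. At an unadjusted p under 0.05 there was 1 segment, against 4.65% of all genes, and over the whole fit 0 genes (0%) were called. Treated and untreated mice did not overlap for 4 segments, all with the treated mice above and 1 of them (Igkv3-4) listed at 0 in both untreated mice, so that it passed the filter only through the treated mice, where 34.9% of all genes did not overlap and 17.9% had the treated mice above.

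Igkv1-117 in B cells stood at 19.4 and 33.0 CPM in treated and 34.2 and 26.5 in untreated mice, and the groups overlapped (log2 fold change -0.21 ± 0.24, edgeR adjusted p 0.949). Without the cell that held 23 of its UMIs, the log2 fold change was 0.07. Igkv1-110 had 75 and 63 UMIs against 33 and 58, and overlapped once scaled (0.04 ± 0.23, adjusted p 0.992). Both of the most used segments thus overlapped between groups.

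The lowest p-values in the upward direction belonged to Igkv3-4, Igkv12-46 and Igkv6-15. Igkv3-4 had 13 UMIs in the B cells of each treated mouse and was listed at 0 in both untreated mice (edgeR adjusted p 0.765). Igkv12-46 stood at 5.50 and 7.93 CPM in treated and 2.93 and 4.97 in untreated mice, a log2 fold change of 0.73 ± 0.46. Igkv6-15 stood at 3.76 and 6.03 against 2.44 and 2.90 (0.85 ± 0.54). Igkv1-135 was the other segment without overlap, at 5.79 and 6.66 against 3.91 and 4.14 (0.62 ± 0.44). These 3 segments had an adjusted p of 0.934 each. In the downward direction the lowest p-values belonged to Igkv2-109, at 6.66 and 9.20 in treated and 7.82 and 13.3 in untreated mice (-0.44 ± 0.35), then to Igkv1-117 and to Igkv12-44 (-0.13 ± 0.40), all with overlap. The remaining tested segments, Igkv17-127, Igkv17-121, Igkv5-43, Igkv6-20, Igkv19-93, Iglv1 and Iglv3, overlapped between the groups. Iglv3 ranged most widely among them, with 6.95 and 18.4 CPM in treated and 5.38 and 10.4 in untreated mice (0.64 ± 0.43). Iglv2, with 5 UMIs in B cells, was not tested.

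By family, 13 were tested in B cells and 0 were called by edgeR, DESeq2 or limma-voom (2 at an unadjusted p under 0.05 in edgeR). Ighv1, the largest mouse heavy chain family, had 22.6 and 27.0 CPM in treated against 9.29 and 19.1 in untreated mice (log2 fold change 0.77 ± 0.27, unadjusted p 0.0119, adjusted p 0.934). Ighv5 had 6.08 and 5.08 against 1.47 and 3.73 (1.05 ± 0.54). Igkv3 had 39 and 20 UMIs in treated mice, 4 in Maus4_2 and was listed at 0 in Maus2_2 (unadjusted p 0.000276, adjusted p 0.770). The treated mice lay above the untreated mice in these 3 families, and the other 10 overlapped, against 34.9% of all features that did not overlap. Of the 22 common segments, Ighv1 held 3, with 9.26 and 7.36 CPM (plain counts) in treated and 5.94 and 8.29 in untreated mice, which overlapped (log2 fold change 0.24 ± 0.36), and Ighv5 and Igkv3 held none. Over all segments, the log2 fold change of Ighv1 was 0.38 without Maus2_2 and 1.40 without Maus4_2, and that of Ighv5 was 0.58 and 1.90. Igkv1, the most used family, had 171 and 189 UMIs in treated and 111 and 142 in untreated mice and overlapped once scaled (-0.05 ± 0.15). Igkv6 (0.56 ± 0.30), Igkv5 (0.54 ± 0.47), Igkv8 (0.53 ± 0.39), Igkv19, which was listed at 0 in Maus2_2, Igkv17 (0.16 ± 0.33), Igkv12 (0.13 ± 0.30), Igkv2 (-0.44 ± 0.36), Iglv1 and Iglv3 made up the rest. Igkv3 passed the filter on low counts through the treated mice. It was called by edgeR without that filter, without Maus6 and without Maus4_2 (adjusted p 2.72e-05, 0.00321 and 0.00728), but each of these fits sets it against a library listed at 0, the last against that library alone, and so they are not given as evidence of a difference.

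In annotated plasmablasts 3 segments were tested and 0 called by edgeR, DESeq2 or limma-voom (0 at an unadjusted p under 0.05 in edgeR), where 0.0186% of 5372 genes (1 gene, the haemoglobin gene Hbb-bs, with 642 of its UMIs in Maus2_2) were called and 6.79% had an unadjusted p under 0.05. No tested segment separated the groups, against 36.8% of all genes, 19.1% with the treated mice above. Igkv1-110 had 61.5 and 32.8 CPM in treated and 26.4 and 35.6 in untreated mice (log2 fold change 0.63 ± 0.46). Igkv1-117 had 41.5 and 39.4 against 56.6 and 32.1 (-0.12 ± 0.42). Iglv1 had 36.6 and 19.7 against 34.0 and 21.4 (0.07 ± 0.52). Of the 2 families tested, Igkv1 lay at 120 and 94.1 in treated and 90.5 and 89.0 in untreated mice (0.27 ± 0.27, edgeR adjusted p 0.886), without overlap.

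A larger share of the B cells of the treated mice held a V UMI, but the groups overlapped after thinning and over the common segments. The share was 42.3% and 46.6% in the treated mice Maus3_2 and Maus6 and 31.7% and 35.3% in the untreated mice Maus2_2 and Maus4_2 (exact permutation p 0.3333, two-sided, the smallest that 4 mice allow). After each B cell was thinned to 2000 UMIs the shares were 26.7% and 34.0% against 18.5% and 29.3%, and the groups overlapped, with means of 30.3% and 23.9% where they were 44.4% and 33.5% before. The median depth of B cells was 4033 and 3194 UMIs in treated and 3961 and 2652 in untreated mice. Thinning left out 16, 50, 10 and 148 shallower B cells of Maus3_2, Maus6, Maus2_2 and Maus4_2. Over the 22 common segments the shares were 27.5% and 32.6% against 28.7% and 23.4%, again with overlap. Maus2_2 made this overlap, and the common segments kept more of its V UMIs than of those of the other mice. The share of V UMIs among all UMIs of the B cells was 0.0184% and 0.0244% in treated and 0.0137% and 0.0206% in untreated mice, and overlapped (exact permutation p 0.667). The lambda share of light chain V UMIs in B cells was 7.94% and 11.6% in treated and 6.47% and 9.02% in untreated mice (exact permutation p 0.667). The direction turned when cells were counted: B cells with Iglv alone were 8.68% and 9.29% of those with a light chain segment in treated and 10.8% and 8.94% in untreated mice.

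Most cells with a V UMI held 1 segment. Of the B cells, 1877 held none, 991 held 1, 228 held 2, 33 held 3 and 1 held 4. The mean number of segments per B cell was 0.522 and 0.601 in treated mice and 0.355 and 0.430 in untreated mice (exact permutation p 0.3333), and after thinning it was 0.301 and 0.396 against 0.195 and 0.336, with overlap. With the 22 common segments it was 0.321 and 0.383 against 0.307 and 0.279, without overlap. Nor did the groups overlap with at least 2 UMIs per segment (0.136 and 0.142 against 0.0803 and 0.112). With annotated plasmablasts added, it was 0.588 and 0.645 against 0.401 and 0.449. Cells with more segments were deeper: over B cells and annotated plasmablasts, the median depth was 3253 UMIs in the 2085 cells with no segment, 3468 in the 1161 with 1, 3814 in the 296 with 2 and 4074 in the 58 with 3. A heavy and a light chain segment were seen together in 144 of 3130 B cells, and 117 of them held exactly 1 of each. Over the B lineage there were 182 different heavy and light pairs, of which 157 were seen in 1 cell. The most frequent was Ighv5-17 with Igkv1-117, in 4 cells of 3 mice, followed by Ighv1-26 with Igkv17-127, Ighv1-9 with Igkv1-110 and Ighv8-12 with Igkv1-117, in 3 cells each.

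A second segment of the same locus was seen mainly in the kappa locus and more often in annotated plasmablasts. Among cells with an Igkv UMI, 81 of 935 B cells (8.66%) and 59 of 189 annotated plasmablasts (31.2%) held 2 or more Igkv segments. In annotated plasmablasts 58 of these 59 cells were in cluster 6, where 179 cells held Igkv, and cluster 9 had 0 of 5. The share in B cells was 7.60%, 9.34%, 6.03% and 10.3% in Maus3_2, Maus6, Maus2_2 and Maus4_2, and in annotated plasmablasts 32.4%, 35.4%, 17.4% and 29.6%, higher in 4 of 4 mice. The median depth of the 2 annotations was close (3364 and 3381.5 UMIs). Kappa V UMIs were denser in annotated plasmablasts, at 213 CPM and at 275 in cluster 6, against 144 in B cells. The part of this density in the second segments was not tested. No test is given, since the annotation was made from expression in the same cells. The second segment had 1 UMI in 131 of the 140 cells. A second heavy chain segment was seen in 6 of 367 B cells with Ighv (1.63%) and in 0 of 68 annotated plasmablasts. Among B cells with a V UMI, the share with 2 or more segments of 1 locus was 7.102% and 7.17% in treated and 4.43% and 8.42% in untreated mice (exact permutation p 1, two-sided).

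Over B cells and annotated plasmablasts together, the light chain segments differed in how many UMIs a cell held and in whether they shared cells with others. Igkv1-117 had 2.40 UMIs per cell that held it and Igkv1-110 had 1.90, while Igkv2-109 had 1.26 and Iglv3 had 1.12. Of the 115 cells with Igkv2-109, 53 (46.1%, exact 95% interval 36.8 to 55.6) also held another light chain segment, and so did 64 of the 137 cells with Iglv3 (46.7%, 38.1 to 55.4). For Igkv1-117 this share was 29.0% (22.03 to 36.9), for Igkv17-127 it was 14.8% (6.62 to 27.1), and the median over the 18 light chain segments seen in 20 or more cells was 29.2%. By mouse, this held for 16 of 32 cells with Iglv3 in Maus3_2, 34 of 63 in Maus6, 3 of 16 in Maus2_2 and 11 of 26 in Maus4_2. Among B cells with Iglv3, 41.4% held an Igkv segment, where 29.9% of all B cells did. In B cells alone, another light chain segment was held by 19.1% of cells with Igkv1-117, 26.3% with Igkv1-110, 39.7% with Igkv2-109 and 43.2% with Iglv3. In annotated plasmablasts (26 to 40 cells each) the shares were close to each other, at 57.5%, 56.4%, 59.5% and 61.5% in the same order. The most frequent light chain pairs were Igkv1-110 with Igkv2-109 in 13 cells, Igkv1-110 with Igkv1-117 in 12, and Iglv3 with Igkv1-110 and with Igkv2-109 in 8 each.

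**Figure D4:**
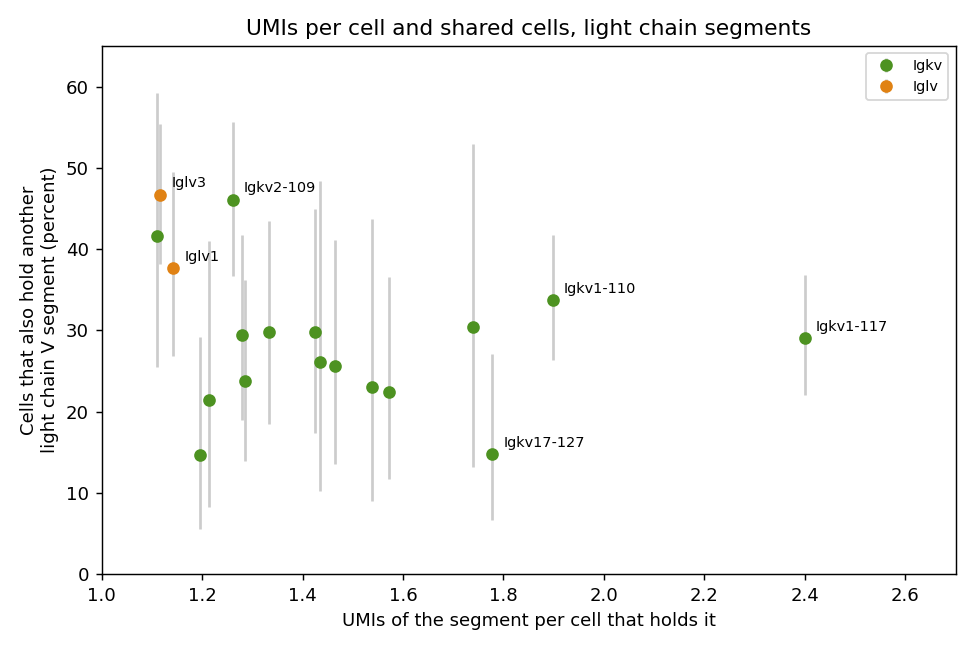
UMIs of a light chain segment per cell that holds it (horizontal axis) and percent of these cells that also hold another light chain segment (vertical axis, bars give the exact 95% binomial interval), for the 18 light chain segments seen in 20 or more cells of the B lineage. Igkv1-117 lies at 2.40 UMIs per cell and 29.0%, and Iglv3 at 1.12 and 46.7%.

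Of the authors' clusters, cluster 9 stood apart in its light chains. Clusters 0, 1, 2 and 10 held the B cells apart from 7, and clusters 6 and 9 the annotated plasmablasts apart from 25. The lambda share of light chain V UMIs was 10.7% in cluster 0, 10.0% in cluster 1, 7.84% in cluster 2 and 4.35% in cluster 10, and 13.5% in cluster 6 (exact 95% interval 10.3 to 17.2). In the 109 cells of cluster 9 it was 73.5% (55.6 to 87.1), from 25 Iglv and 9 Igkv UMIs. Treated mice had 90.0% (9 Iglv and 1 Igkv UMIs) and 75.0% (6 and 2), untreated mice 85.7% (6 and 1) and 44.4% (4 and 5). Each share was above that of cluster 6 in the same mouse, but rested on these few UMIs. In Maus4_2 the exact 95% intervals of cluster 9 (13.7 to 78.8) and cluster 6 (3.13 to 20.7) overlapped. Iglv1 gave 19 of the 53 V UMIs of cluster 9, while Igkv1-117 led clusters 0, 1, 2 and 6 and Igkv1-110 led cluster 10. Cluster 9 held a V UMI in 32.1% of its cells against 64.7% in cluster 6. These are descriptions, since the clusters were built from the expression of the same cells.

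The lambda constant gene Iglc1 was also highest in cluster 9, and the order of the other clusters was not that of the lambda V share. Iglc1 averaged 15.01 UMIs per cell in cluster 9, 7.54 in cluster 6, 1.78 in cluster 10 and 0.42, 0.38 and 0.50 in clusters 0, 1 and 2. Igkc, the kappa constant gene, averaged 5.40 UMIs in cluster 9 and 37.6 in cluster 6, and made up 19.3% and 64.3% of their light chain constant UMIs. Iglv1 went with Iglc1 in annotated plasmablasts, where the 22 cells with Iglv1 as their only light chain segment had 58.1% of their light chain constant UMIs from Iglc1, and the 162 cells with Igkv alone had 9.82%. In B cells, Iglc1 made up 4.52% in the 26 cells with Iglv1 alone and 1.20% in the 875 cells with Igkv alone. Iglc2 made up 46.7% in the 4 B cells with Iglv2 alone. The 63 B cells with Iglv3 alone were near the cells with no light chain segment: Igkc gave 77.2% of their light chain constant UMIs, against 81.2% with Igkv alone and 76.2% with no light chain segment, and Iglc2 gave 15.2%, 12.0% and 15.3%. Iglc2 and Iglc3 are close copies, so that their division is uncertain.

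**Figure D5:**
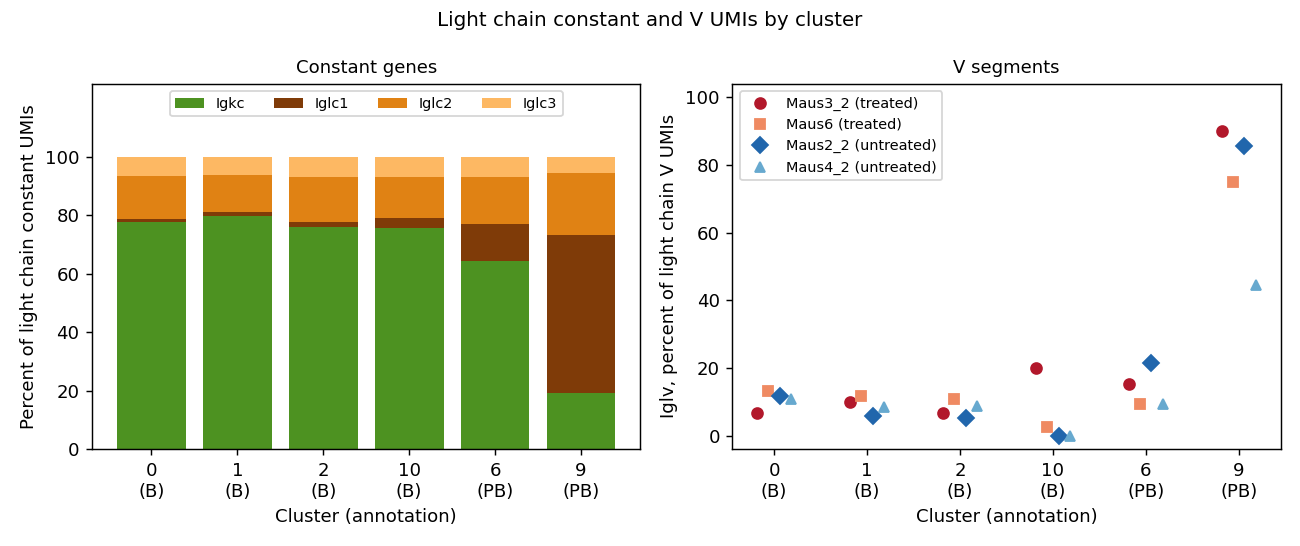
Left, share of each light chain constant gene among light chain constant UMIs (percent) in the authors' clusters of B cells (B) and annotated plasmablasts (PB). Right, Iglv UMIs as percent of light chain V UMIs in the same clusters, with 1 point per mouse, where cluster 9 lies at 44.4% to 90.0% and cluster 6 at 9.24% to 21.4%.

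The other genes of the pathway showed no call in either cell type. Of 74 genes in 9 lists, 65 were measured, and 53 were tested in B cells, of which 31 were higher and 22 lower in treated mice, with 0 called by edgeR and 5 at an unadjusted p under 0.05, where 4.65% of all genes were. In annotated plasmablasts 41 were tested, 20 higher and 21 lower, with 0 called and 9 at an unadjusted p under 0.05, where 6.79% of all genes were. In B cells the tested genes numbered 7 among constant regions (5 higher, 2 lower), 6 in the receptor complex (4 and 2), 8 in V(D)J recombination (3 and 5), 1 for the surrogate light chain (0 and 1), 6 for hypermutation and class switch (3 and 3), 15 among promoter and enhancer factors (6 and 9), 5 for secretion (5 and 0), 3 for B-1 cells (3 and 0) and 4 for marginal zone and follicular cells (2 and 2). In annotated plasmablasts these numbers were 6 (4 and 2), 6 (4 and 2), 6 (2 and 4), 1 (1 and 0), 3 (2 and 1), 15 (5 and 10), 3 (2 and 1), 0 and 3 (0 and 3) in the same order.

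Igkc, whose product joins every kappa V segment, had 7528 and 7933 CPM in the B cells of treated against 6455 and 7305 in those of untreated mice (log2 fold change 0.17 ± 0.09), and 9803 and 8856 against 7499 and 7005 in annotated plasmablasts (0.36 ± 0.11, edgeR adjusted p 0.428). Cd79a and Cd79b, the signalling partners of the receptor, had log2 fold changes of 0.22 ± 0.09 and 0.21 ± 0.09 in B cells (edgeR adjusted p 0.934 for both), with both treated mice above both untreated mice, as for 17.9% of all genes. Pax5, a factor that keeps B cell identity, was at -0.22 ± 0.10 in B cells, and Spi1, a factor that binds kappa enhancers, at 0.30 ± 0.13. Pou2af1, the coactivator of octamer factors at V promoters, was at -0.38 ± 0.17 in annotated plasmablasts. Cd9, a surface protein of the B-1 list, had 22.6 and 18.7 CPM in the B cells of treated and 10.7 and 7.04 in those of untreated mice (1.23 ± 0.28, edgeR adjusted p 0.765). Hmgb1 (0.14 ± 0.10) and Nhej1 (-0.59 ± 0.38), of the recombination list, Apex2 (-0.35 ± 0.20) and Vpreb3 (-0.05 ± 0.12) did not pass the threshold in B cells. In annotated plasmablasts Apex2 was at -1.30 ± 0.60 (4 to 9 UMIs per mouse) and Vpreb3 at 0.36 ± 0.17 (edgeR adjusted p 0.722 for both). Cd79b was at 0.42 ± 0.12 there (edgeR adjusted p 0.428). Treated and untreated mice did not overlap for these genes, as for 36.8% of all genes in annotated plasmablasts. In the B cells the summed plasma cell markers were at 204 and 224 CPM in treated and 176 and 228 in untreated mice, the 1 measured neutrophil marker of 2 at 0.578 and 40.8 against 0.99 and 0, monocyte markers at 12.4 and 16.9 against 4.46 and 73.8, and red blood cell markers at 94.3 and 11.7 against 0 and 5.39, whose part in these values was not tested.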

How the data were processed

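Peripheral blood mononuclear cells of 4 mice were sequenced as 4 single-cell libraries. The authors deposited 1 table of UMI counts per gene and cell (raw counts, Cell Ranger 7.1.0, mm10) and a table of cells with their sample, cluster and annotation from Seurat 4.3.0, whose percent column (mitochondrial UMIs) was not used. Their methods name doublet and ambient RNA removal, and the sources used here do not give whether the counts include the latter. Cells were used as deposited and doublets were not called again.

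UMI counts were summed per mouse and annotated cell type and tested with edgeR 4.0.16 (quasi-likelihood, TMM, filterByExpr, treatment only, Benjamini-Hochberg over all features, threshold 0.05), in place of the study's test over cells. The mouse was the replicate. SE is the log2 fold change divided by the root of F. Values per mouse were compared with an exact two-sided permutation test (scipy 1.17.1). Intervals are exact binomial at 95%, and a count of 0 allows 3 counts. Alternatives used DESeq2 1.42.0, limma 3.58.1, RLE, no filter, single mice left out and thinning (20 draws). The edgeR, limma-voom and DESeq2 fits of single genes were tested on simulated data in which only genes of higher counts changed. The fits of families and loci, and those with RLE, no filter or mice left out, were not. Sequences and positions come from GENCODE vM21.

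The members and gene lists were chosen with earlier results of these data known. Segments named are the 10 Ighv and 10 Igkv with the most UMIs, all Iglv, the leading segment of each mouse and cluster, and the 3 lowest p-values per direction and cell type. Families are all those tested, and other genes were named among the 4 lowest p-values of a list.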

Additional observations from a re-analysis of the deposited data

Results flagged for a closer look

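In T cells and annotated NK cells, which no comparison of treated with untreated mice above used, the treated mice had 4 V UMIs and the untreated mice had 0. Maus3_2 had 2 in 529 cells and Maus6 had 2 in 605 cells, against 0 in 424 cells of Maus2_2 and 0 in 632 cells of Maus4_2. The 4 UMIs were of 4 segments, namely Igkv2-109, Ighv8-12, Igkv6-23 and Igkv3-2, the last 2 named after their values were seen. A segment listed at 0 in a library cannot show a UMI there, and the untreated libraries listed fewer segments (30 and 52, against 58 and 61). The difference between the groups was not tested.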

How the results depend on the processing

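No paired analysis was possible because the labels give no number that pairs a treated with an untreated mouse. The number of V segments called in B cells rose from 0 to 1 without the filter on low counts (Igkv3-4, edgeR adjusted p 0.0233), and that of families from 0 to 1 without it and from 0 to a range of 0 to 1 with 1 mouse left out (Igkv3 in each case). Over all genes of B cells the count rose from 0 to 21 without the filter and to 10 to 16 with 1 mouse left out. The counts of segments and families stayed at 0 with RLE scaling, DESeq2, limma-voom and both cell types together, as did the counts for annotated plasmablasts and loci under each alternative run, and for families over the 22 common segments (10 tested). The treated minus untreated difference in the share of B cells with 2 or more V segments of 1 locus was 0.71 percentage points, -0.63 with cells thinned to 2000 UMIs, -0.63 with the 22 common segments and -1.28 to 2.71 with 1 mouse left out. It was 3.03 with both cell types together and 1.53 with at least 2 UMIs per segment. In these last settings both treated mice lay above both untreated mice. The difference in lambda share was 2.03 points by UMIs and -0.87 when cells with only Iglv were counted. Of 164 other fits of the 29 log2 fold changes without a listed 0, 4 turned sign: Igkv1 (0.0337), Igkv2 (0.0780) and Igkv2-109 (0.10) with both cell types together, and Igkv1-117 (0.0655) without the cell with 23 UMIs. With 1 mouse left out, 17 had both signs. In B cells these were Igkv1 -0.19 to 0.0836, Igkv12 -0.29 to 0.49, Igkv17 -0.24 to 0.80, Igkv2 -0.84 to 0.17, Igkv5 -0.14 to 2.23, Igkv8 -0.0510 to 0.96, Iglv3 -0.20 to 1.21, Igkv1-110 -0.20 to 0.37, Igkv1-117 -0.64 to 0.13, Igkv12-44 -0.42 to 0.14, Igkv17-121 -0.0331 to 0.62, Igkv17-127 -0.38 to 0.95, Igkv2-109 -0.74 to 0.00798, Igkv5-43 -0.0844 to 1.24 and Igkv6-20 -0.27 to 0.44, and in annotated plasmablasts Iglv1 -0.23 to 0.45 and Igkv1-117 -0.48 to 0.35. The causes were not tested. The alternatives with 22 segments and without that cell were chosen after seeing the data. With 44 to 166 Ighv UMIs per mouse, counting error alone is wide for single heavy chain segments, none of which passed the filter.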
